A study of Mus musculus with 24 samples.

Results

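The genes described here are the carriers that move amino acids and transmitters across membranes. Probe sets annotated to 1 gene were kept where that gene's symbol began with Slc1a, Slc3a, Slc6a, Slc7a, Slc36a, Slc38a or Slc43a and a number. This gave 125 probe sets for 63 genes, of 34958 probe sets for 18194 genes in all. Of the 63, 60 are transporter genes or subunits of transporters, and 3 carry such a symbol with the ending os, for a transcript of the opposite strand (Slc7a6os, Slc6a19os and Slc36a1os). The choice used names only and no measured value.

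RNA came from primary cortical neurons taken from mice at embryonic day 18 and kept in culture for 1 week. Cultures were then exposed for 2 h or 12 h to the solvent DMSO, to IBET858 at 1 µM, to BDNF at 50 ng per ml, or to BDNF at 50 ng per ml together with IBET858 at 1 µM. IBET858 blocks BET proteins, which read acetyl marks on histones, and BDNF is the neurotrophin that signals through TrkB. Each of the 8 groups had 3 arrays, 24 in all. Strain and genotype are not given in the sources used here, and the labels do not say whether replicates were separate cultures. Each p-value therefore weighs a difference between groups only against the scatter of these samples, which may be technical.

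Cells take up amino acids through several families of carriers that differ in substrate and driving force. The SLC1 family clears glutamate from the synapse and exchanges neutral amino acids, and the SLC6 family takes up GABA, glycine, monoamines, creatine and taurine with sodium. SLC7 light chains reach the cell surface only when bound to an SLC3 heavy chain, and they carry leucine, cystine and other amino acids, while the cationic branch of SLC7 carries arginine and lysine without a heavy chain. SLC38 carriers move glutamine between astrocytes and neurons, and members of SLC36, SLC38 and SLC7 on the lysosome let amino acids out or report them to the growth kinase mTORC1.

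Values are log2 intensities that had been centred on the median of each probe set over the arrays. They show differences between arrays and not how abundant a transcript was, so neither levels of different genes nor the presence of a cell type by its markers could be compared. The value of a gene is the mean of its probe sets, 1 for 31 members and 2 to 7 for the other 32. Changes are differences of group means on the log2 scale, given with the standard error of the limma fit after the ± sign (n = 3 arrays per group), and a gene was called at a Benjamini-Hochberg adjusted p under 0.05 over all 18194 genes. The standard deviation of an array around its group mean was 0.0882 to 0.143 on 22 arrays, but 0.218 on DMSO 2 h replicate 1 and 0.192 on IBET858 12 h replicate 3. The number of arrays limits the precision. In such bulk samples, fewer cells of a type and less RNA per cell cannot be told apart.

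Of the 63 members, 41 were called in at least 1 of 8 comparisons between treatments, which is 65.1% beside 75.5% of all genes. Slc1a5, an exchanger that brings glutamine into cells, was called in all 8, and 22 members in none. The 22 included the carriers of noradrenaline, dopamine and serotonin (Slc6a2, Slc6a3 and Slc6a4), the betaine and GABA carriers Slc6a12 and Slc6a13, and the epithelial carriers Slc6a18 and Slc6a19. Slc1a2, the main glutamate carrier of astrocytes, was among them too. The rest of the 22 were Slc6a16, Slc6a20b, Slc6a21, Slc7a10, Slc7a12, Slc7a15, Slc36a1, Slc36a2, Slc36a3, Slc38a4, Slc38a5, Slc43a1, Slc6a19os and Slc36a1os. The plot of shares called sets the list beside all genes, and the share of members was the lower one in each of the 8 comparisons. The colour plot of changes shows the members one by one.

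**Figure D1:**
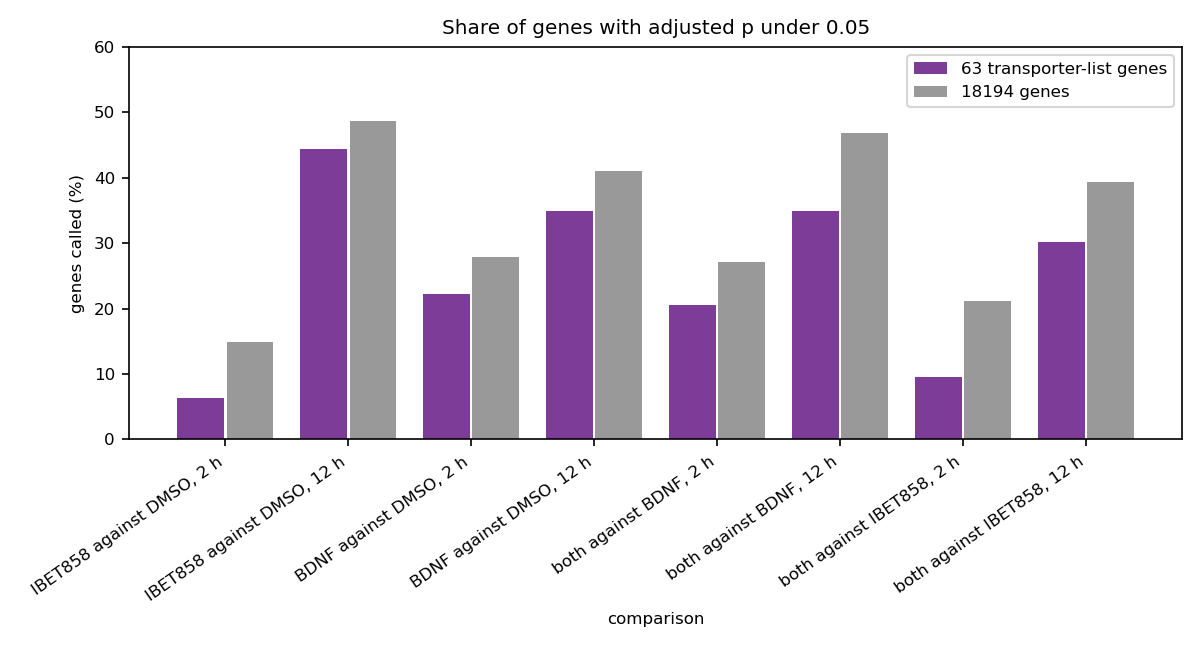
Share of the 63 transporter-list genes (purple) and of all 18194 genes (grey) with an adjusted p under 0.05, in percent, for each of 8 comparisons. The share of the members is the lower bar in every pair, from 6.35% beside 14.9% for IBET858 at 2 h to 44.4% beside 48.7% for IBET858 at 12 h.

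**Figure D2:**
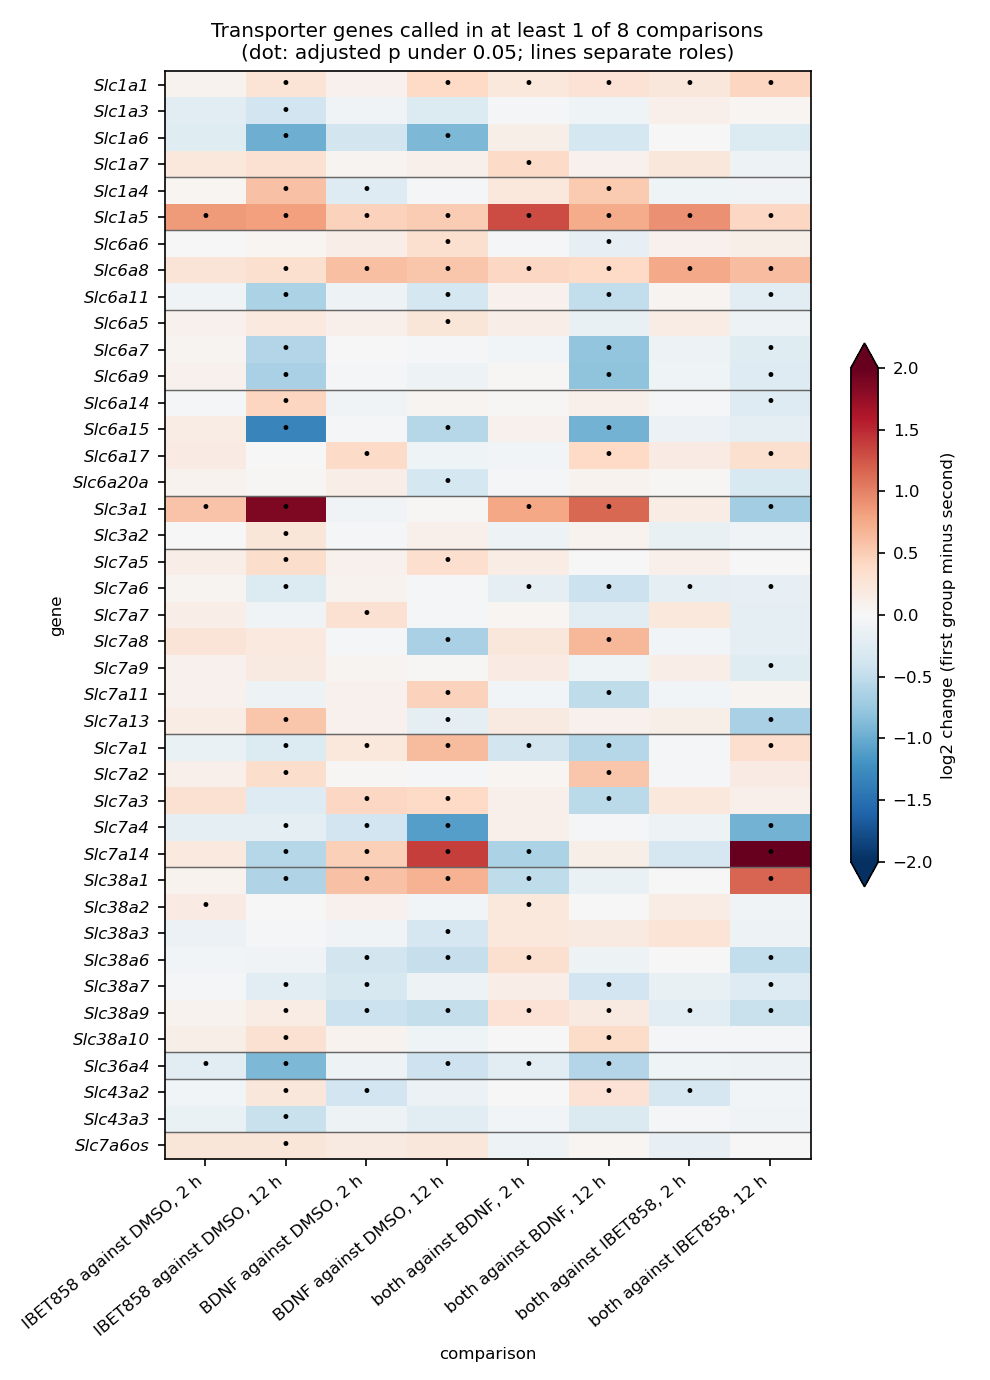
Change of the 41 members called at least once, on the log2 scale (red higher and blue lower in the first group, colour saturated at 2), in 8 comparisons, with a dot where the adjusted p was under 0.05 and lines between roles. Slc1a5 is red with a dot in every column, and Slc3a1, Slc6a15 and Slc7a14 reach the deepest colours.

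Promoters of 4 members are printed because they hold letters that factors of the amino acid or activity response are known to bind, in genes that were called in at least 1 comparison. A promoter here is 250 bases before to 50 after a start site in the RefSeq table of build GRCm38.p6, which held 67 promoters for 46 of the 63 members. Each is given 5′ to 3′ on the strand of its gene, and capitals mark the match. The promoter of Slc7a11 (chr3:50443564-50443863, minus strand) and that of Slc1a4 (chr11:20332664-20332963, minus strand) hold TGATGNAAN, the element shared by C/EBP and ATF factors. Those of Slc3a1 (chr17:85028097-85028396, plus strand) and Slc7a1 (chr5:148399855-148400154, minus strand) hold TGANTCA, the element of AP-1 factors.
Slc7a11: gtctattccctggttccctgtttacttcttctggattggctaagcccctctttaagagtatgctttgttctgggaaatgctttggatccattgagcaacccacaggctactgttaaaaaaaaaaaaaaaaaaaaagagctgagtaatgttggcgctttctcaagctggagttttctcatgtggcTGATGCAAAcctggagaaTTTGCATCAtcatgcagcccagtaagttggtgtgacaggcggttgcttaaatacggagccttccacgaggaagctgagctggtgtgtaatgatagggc
Slc1a4: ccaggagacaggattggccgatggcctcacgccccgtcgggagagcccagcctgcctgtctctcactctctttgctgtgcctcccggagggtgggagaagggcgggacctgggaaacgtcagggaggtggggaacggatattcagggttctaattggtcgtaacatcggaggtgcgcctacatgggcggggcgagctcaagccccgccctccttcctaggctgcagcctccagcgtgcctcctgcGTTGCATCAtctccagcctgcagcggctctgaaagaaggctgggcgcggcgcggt
Slc3a1: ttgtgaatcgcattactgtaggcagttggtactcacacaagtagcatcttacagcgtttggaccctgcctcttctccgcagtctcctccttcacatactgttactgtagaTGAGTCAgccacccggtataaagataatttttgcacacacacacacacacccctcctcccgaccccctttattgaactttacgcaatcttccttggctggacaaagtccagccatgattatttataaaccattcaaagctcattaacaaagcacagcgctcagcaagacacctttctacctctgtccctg
Slc7a1: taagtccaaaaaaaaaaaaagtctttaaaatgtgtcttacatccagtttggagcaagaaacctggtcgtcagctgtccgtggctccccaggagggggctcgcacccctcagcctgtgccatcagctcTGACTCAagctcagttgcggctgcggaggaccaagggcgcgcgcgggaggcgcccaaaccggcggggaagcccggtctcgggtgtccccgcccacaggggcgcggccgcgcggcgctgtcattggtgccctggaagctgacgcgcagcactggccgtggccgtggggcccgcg
Slc7a11 has the C/EBP and ATF element in both orientations within a short stretch, and Slc1a4 has it on the opposite strand only. On both strands, TGATGNAAN was found in 5 of the 67 promoters of members, or 7.46% (Slc1a4, Slc6a21, Slc7a7 and Slc7a11). It was found in 3.95% of all 32851 promoters of the table. The 5 include overlapping promoters of Slc7a7 that share a match. TGANTCA was found in 10 promoters of members, 14.9% beside 7.81%, in 9 genes that included Slc3a1 and Slc7a1. The cyclic AMP element TGACGTCA was found in 1.49% beside 1.79% (Slc38a6), and the EGR element GCGNGGGCG in 5.97% beside 5.55% (Slc1a6, Slc38a2 and Slc7a6). The EGR share is 4 promoters, among them overlapping promoters of Slc7a6 that share a match. No hits of different motifs overlapped in these promoters. The matches describe letters and not binding. Genes with the same motif did not always move alike: at 12 h with IBET858 Slc3a1 rose by 1.87 and Slc7a1 was at -0.27, and with BDNF Slc7a11 rose by 0.46 while Slc1a4 was at -0.017.

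IBET858 alone, at 2 h, changed few of these genes, and the largest change was a rise of the glutamine exchanger Slc1a5. Against DMSO, 4 members were called, 3 higher and 1 lower, which is 6.35% of members beside 14.9% of all genes (5.64% higher and 9.27% lower). Slc1a5 rose by 0.85 ± 0.069 (1.80-fold), Slc3a1 by 0.56 ± 0.14 (1.48-fold) and the glutamine carrier Slc38a2 by 0.16 ± 0.052. Slc36a4, a member of the proton-coupled family, fell (-0.23 ± 0.053). Over 1.5-fold, 1 member was called, 1.59% of the list beside 3.05% of all genes.

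The centred values of Slc1a5 were -0.61, -0.70 and -0.49 on the 3 DMSO arrays at 2 h and 0.22, 0.22 and 0.31 on the 3 IBET858 arrays, so every treated array was above every control by a wide gap (adjusted p = 9.11e-09). Both of its probe sets rose, by 0.78 and 0.93. Slc3a1, the heavy chain that brings cystine and dibasic amino acid carriers to the surface, was at -0.24, -0.49 and -0.29 with DMSO and at 0.21, 0.044 and 0.43 with IBET858 (adjusted p = 0.00583). The groups of Slc3a1 did not overlap, although its lowest treated array was nearer to the controls than those of Slc1a5. Slc36a4 read 0.16, 0.30 and 0.28 with DMSO and 0.016, 0.015 and 0.018 with IBET858, a small fall with hardly any spread among treated arrays (adjusted p = 0.00356). The rise of Slc38a2 was as small, from -0.0040, 0.019 and 0.12 to 0.18, 0.20 and 0.22 (adjusted p = 0.0460), and its call was lost in 5 of 6 fits that left out 1 array, at 0.13 to 0.19, and kept only without DMSO 2 h replicate 3. It was also lost in 7 alternatives, among them the median of probe sets (0.17, adjusted p = 0.117) and a fit without the 2 arrays that stand apart, DMSO 2 h replicate 1 and IBET858 12 h replicate 3 (0.13, adjusted p = 0.0813).

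The other carriers followed by rule at 2 h did not pass the test. Among glutamate carriers Slc1a1 was at 0.070 ± 0.048, Slc1a2 at -0.076 ± 0.086 and Slc1a3 at -0.21 ± 0.12. The creatine carrier Slc6a8 was at 0.26 ± 0.090 (adjusted p = 0.0539) and the arginine carrier Slc7a3 at 0.31 ± 0.12 (adjusted p = 0.0911). Slc7a1 was at -0.13 ± 0.059, Slc7a5 at 0.13 ± 0.078, Slc7a11 at 0.090 ± 0.071 and Slc6a9 at 0.081 ± 0.090. Slc1a4 (0.034 ± 0.093), Slc3a2 (-0.0012 ± 0.062), Slc6a6 (0.0082 ± 0.060) and Slc38a1 (0.068 ± 0.070) were nearest to no change. With array weights, which give less weight to noisier arrays, Slc7a5 (0.20, adjusted p = 0.00178), Slc1a4 (0.17, adjusted p = 0.0186) and Slc6a8 (0.15, adjusted p = 0.0225) were called. Slc7a5 was called without the 2 arrays that stand apart as well (0.24, adjusted p = 0.00931). Slc6a8 also passed with the replicate number as a block (adjusted p = 0.0461) and with the less variable genes dropped (adjusted p = 0.0325). With 1 array left out, Slc6a8 ranged from 0.11 to 0.37 (adjusted p up to 0.340), lowest without DMSO 2 h replicate 1. Slc7a5 then ranged from 0.052 to 0.24 (adjusted p up to 0.741), lowest without DMSO 2 h replicate 3. The count of calls depended on the weight of the arrays: with array weights 17 members were called, 14 higher and 3 lower, beside 32% of all genes, and without DMSO 2 h replicate 3 the count was 9. With each array centred on its median the 4 calls were 2 higher and 2 lower.

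After 12 h of IBET858 alone, as many members had fallen as had risen. The furthest rise was that of Slc3a1, to 3.65-fold, and the furthest falls were those of the neuronal amino acid carrier Slc6a15, of the glutamate carrier Slc1a6 and of Slc36a4. In all 28 members were called, 14 higher and 14 lower, 44.4% of members beside 48.7% of all genes (22.9% higher and 25.8% lower). Over 1.5-fold 2 were higher and 7 lower, which is 14.3% of members beside 15.5% of all genes. The median change of the members was 0.037, beside 0.041 over all genes.

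Among glutamate carriers, Slc1a1 rose at 12 h while Slc1a6 and Slc1a3 fell. Slc1a1, the carrier found on neurons, rose by 0.27 ± 0.048, from -0.29, -0.22 and -0.27 with DMSO to 0.090, -0.0022 and -0.073 with IBET858, and its 3 probe sets rose by 0.25 to 0.30. Slc1a6, best known from cerebellar Purkinje cells, fell, from 0.082, 0.095 and -0.072 to -0.50, -1.18 and -1.16 (-0.98 ± 0.15, adjusted p = 1.60e-05). No IBET858 array of Slc1a6 reached the DMSO arrays, but 1 of the 3 lay apart from the others. Slc1a3, a carrier of astrocytes, fell by a smaller amount (-0.39 ± 0.12), and without DMSO 12 h replicate 1 it was no longer called (-0.27, adjusted p = 0.0673), nor was it with the median of its probe sets (-0.37, adjusted p = 0.0602). Slc1a2 was at -0.064 ± 0.086 and not called, with probe sets between -0.70, which was called, and 0.30.

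Markers of astrocytes and microglia were measured beside these carriers. Of 10 astrocyte markers 2 rose and 3 fell with IBET858 at 12 h, with a median of -0.17, beside 22.9% of all genes higher and 25.8% lower and a median of 0.041. The water channel Aqp4 fell (-1.21 ± 0.18), and so did the gap junction gene Gja1 (-1.02 ± 0.17), while Sox9 rose by 0.84 ± 0.14. The mean of the 10 markers ranged from -0.16 to 0.26 over the DMSO arrays at 12 h and from -0.29 to -0.18 over the IBET858 arrays, and the groups of this mean did not overlap. Of 8 microglia markers 5 fell, with a median of -0.35. Their part in the falls of Slc1a3, Slc1a6, Slc6a9 and Slc6a11 was not tested. Neuron markers fell for 5 and rose for 3 of 10, and interneuron markers fell for 3 and rose for 3 of 10. Changes were also called in both directions among oligodendrocyte markers (1 higher and 1 lower of 7), progenitor markers (2 and 1 of 7) and vascular markers (2 and 2 of 12).

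The neutral exchangers of SLC1 rose together. Slc1a5 was at -0.73, -0.67 and -0.69 with DMSO and at -0.056, 0.20 and 0.23 with IBET858 (0.83 ± 0.069, 1.77-fold). Its relative Slc1a4, which exchanges serine and alanine, was at 0.11, -0.099 and -0.27 with DMSO and 0.51, 0.52 and 0.45 with IBET858 (0.58 ± 0.093, adjusted p = 1.95e-05). In both genes all 3 treated arrays lay above all 3 controls, and each probe set rose, the 3 of Slc1a4 by 0.48 to 0.64.

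Of the SLC6 carriers of transmitters and creatine, Slc6a9, Slc6a7 and Slc6a11 fell and Slc6a8 rose. Slc6a9, the glycine carrier of glia and of glutamatergic terminals, fell from 0.057, 0.14 and 0.0075 to -0.64, -0.82 and -0.29 (-0.65 ± 0.090). The proline carrier Slc6a7 fell too (-0.59 ± 0.079), and the GABA carrier Slc6a11 went from -0.041, -0.018 and -0.080 to -0.64, -0.76 and -0.62 (-0.63 ± 0.078). None of these groups overlapped with its controls, although of the 2 probe sets of Slc6a11 1 carried the fall (-1.29) and the other was at 0.032. The creatine carrier Slc6a8 rose by 0.32 ± 0.090, and the taurine carrier Slc6a6 was at 0.037 ± 0.060, not called. The glycine carrier Slc6a5 (0.20 ± 0.089) and the betaine and GABA carriers Slc6a12 (0.034 ± 0.10) and Slc6a13 (0.16 ± 0.081) were not called either.

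The largest fall of all members was that of Slc6a15, which takes up branched-chain amino acids and proline into neurons. It read -0.27, -0.064 and -0.047 with DMSO and -1.33, -1.33 and -1.68 with IBET858, a change of -1.32 ± 0.098 (2.50-fold lower, adjusted p = 3.45e-10). Slc6a14, a broad carrier of neutral and cationic amino acids, rose by 0.42 ± 0.084, from -0.024, -0.095 and -0.16 to 0.60, 0.21 and 0.19. The highest of these IBET858 arrays stood well above the other two, and the groups did not overlap.

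Heavy and light chains of the exchangers rose in part. Slc3a1 went from -0.53, -0.46 and -0.044 with DMSO to 1.56, 1.5 and 1.52 with IBET858, a rise of 1.87 ± 0.14 (adjusted p = 3.21e-10), and the 3 treated arrays lay close together, far above the controls. Its measure rests on 1 probe set. Slc7a13, a light chain that pairs with Slc3a1, rose as well, from 0.10, 0.059 and 0.032 to 0.53, 0.64 and 0.70 (0.56 ± 0.071), while Slc7a9, its better known partner, was at 0.18 ± 0.094 and not called. The other heavy chain, Slc3a2, rose by 0.24 ± 0.062 and the leucine carrier Slc7a5 by 0.36 ± 0.078, whereas the cystine and glutamate exchanger Slc7a11 was at -0.10 ± 0.071. Slc7a6 was called lower (-0.28 ± 0.059), with 1 probe set called in each direction.

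Of the cationic branch, 1 member rose and 3 fell. The arginine carrier Slc7a2 rose by 0.36 ± 0.074, and Slc7a1 (-0.27 ± 0.059), Slc7a4 (-0.19 ± 0.063) and Slc7a14 (-0.57 ± 0.16) fell. The arrays of Slc7a14 overlapped, -0.74, 0.035 and -0.15 with DMSO against -0.52, -1.07 and -0.98 with IBET858. Slc7a3 was at -0.25 ± 0.12 (adjusted p = 0.0844). It was called lower in a fit of the 4 groups at 12 h alone (adjusted p = 0.0414) and without the 2 arrays that stand apart (-0.27, adjusted p = 0.0231). With 1 array left out, Slc7a3 ranged from -0.37 to -0.16 (adjusted p up to 0.321), weakest without DMSO 12 h replicate 1.

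Carriers of SLC38 split, with 2 higher and 2 lower of 9. Slc38a1, which supplies glutamine to neurons, fell by 0.61 on the log2 scale, from -0.32, -0.12 and -0.13 to -0.79, -0.78 and -0.83 (SE 0.070, adjusted p = 2.56e-07). Without probe sets whose names end in _s_at or _x_at, which may read several transcripts, the fall was -0.36 and still called. Slc38a7 fell too (-0.22 ± 0.064), Slc38a10 rose by 0.31 ± 0.049 and Slc38a9, the lysosomal arginine sensor of mTORC1, by 0.15 ± 0.058 with 3 of its 7 probe sets higher and 1 lower. Slc38a2 was at 0.0079 ± 0.052. In SLC36, Slc36a4 had the lowest adjusted p of any member here, falling from 0.22, 0.38 and 0.21 to -0.55, -0.65 and -0.68 (-0.89 ± 0.053, adjusted p = 1.28e-11). In SLC43, the leucine carrier Slc43a2 rose by 0.23 ± 0.069 and the nucleobase carrier Slc43a3 fell (-0.44 ± 0.12). The opposite-strand gene Slc7a6os was called higher (0.25 ± 0.088), but its 2 probe sets were at 1.17 and -0.68. It overlaps Slc7a6, whose probe sets were at 0.22 and -0.78, so both genes are uncertain.

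**Figure D3:**
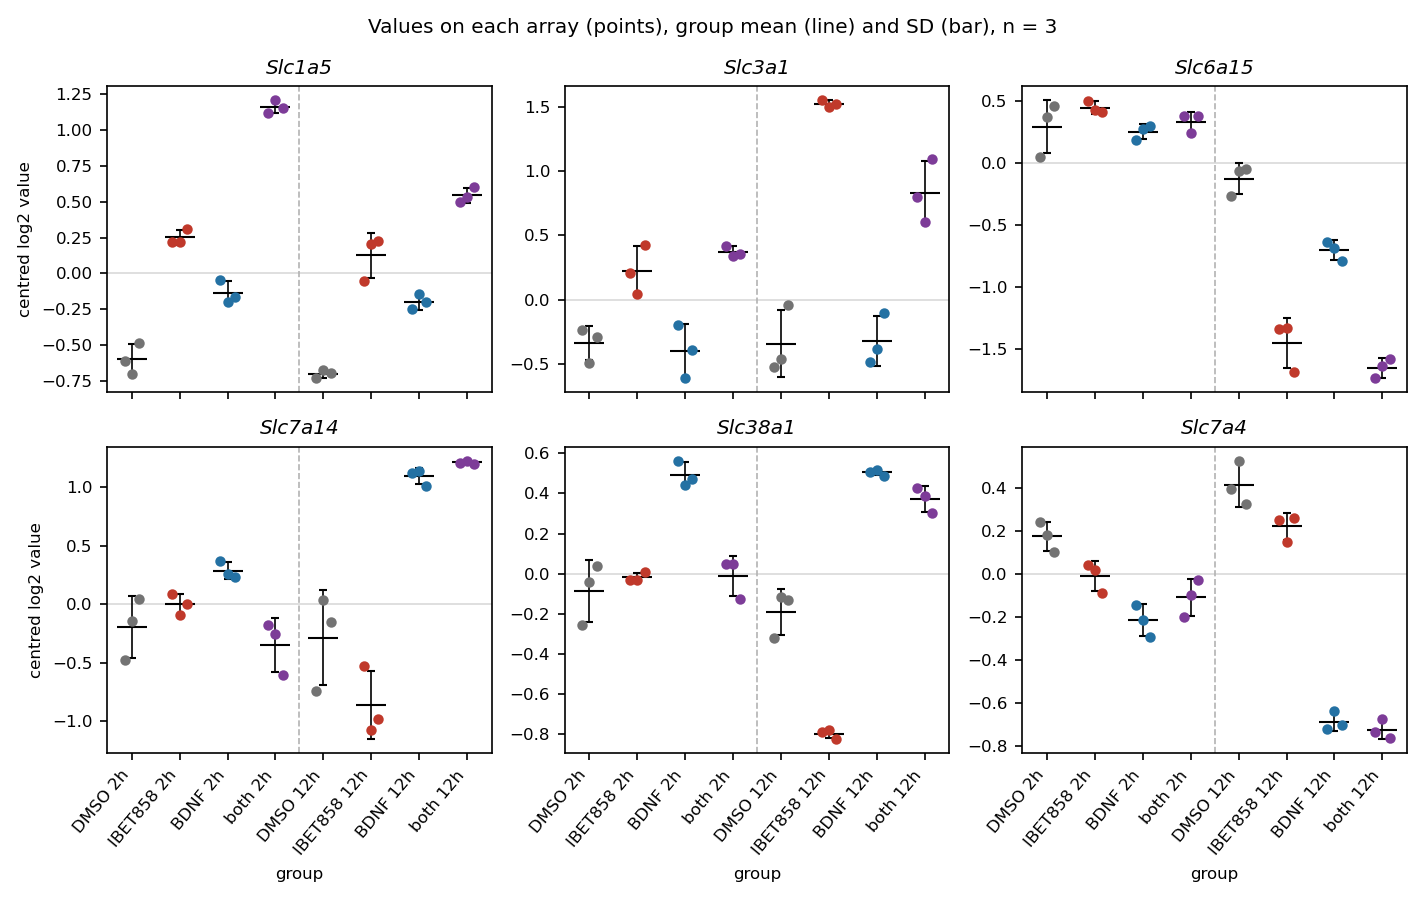
Centred log2 values of 6 members on each of the 24 arrays (points), with group means (lines) and standard deviations (bars, n = 3), 2 h left and 12 h right of the dashed line. Slc1a5 is lowest in both DMSO groups, Slc3a1 is highest with IBET858 at 12 h, Slc6a15 is lowest where IBET858 was present for 12 h, and Slc7a4 is lowest with BDNF at 12 h with or without IBET858.

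Of the genes that cells switch on when amino acids run short, more fell than rose with IBET858 at 12 h. Such shortage is known to act through the factor ATF4, whose targets include several light chains. Of 35 measured genes of that response, 9 rose and 1 fell at 2 h, beside 5.64% of all genes higher and 9.27% lower. At 12 h 9 rose and 18 fell, beside 22.9% higher and 25.8% lower, with a median of -0.26 beside 0.041 over all genes. Eif4ebp1, a brake on translation, fell (-1.45 ± 0.058) and the lipoprotein receptor gene Vldlr fell (-1.10 ± 0.085), while the stress factor Ddit3 rose by 1.26 ± 0.11 at 12 h. At 2 h Ddit3 (1.15 ± 0.11), Atf3 (0.91 ± 0.15) and Sesn2 (0.90 ± 0.16) had risen most. Of 29 genes that report amino acids to mTORC1, 9 rose and 8 fell at 12 h, beside the same 22.9% and 25.8% of all genes. Among them were Sesn3 at 1.56 ± 0.072, Castor2 at 0.69 ± 0.069 and Rragd at -1.08 ± 0.10. Of 17 genes of glutamate, GABA and glutathione metabolism, 4 rose and 5 fell at 12 h, beside the same shares of all genes. These included the vesicular glutamate carrier Slc17a6 at -2.05 ± 0.076 and the glutathione enzymes Gss at 1.45 ± 0.095 and Gclc at 1.13 ± 0.069. At 2 h 1 of the mTORC1 genes rose (Castor1, 0.37 ± 0.082) and 3 fell, of which Mios (-0.33 ± 0.070) and Rragc (-0.28 ± 0.051) most. Of the metabolic genes 3 rose at 2 h. These were the glutamine synthetase gene Glul (0.30 ± 0.068), Ggct (0.28 ± 0.066) and the GABA transaminase gene Abat (0.22 ± 0.065). The 2 h counts of these lists stand beside 5.64% of all genes higher and 9.27% lower.

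BDNF alone, at 2 h, raised the creatine carrier Slc6a8, the glutamine carriers Slc38a1 and Slc1a5 and 3 members of the cationic branch, and lowered 3 members of SLC38, Slc7a4, Slc1a4 and the leucine carrier Slc43a2. Against DMSO 14 members were called, 8 higher and 6 lower, 22.2% of members beside 27.9% of all genes (9.79% higher and 18.1% lower). Over 1.5-fold only Slc6a8 was called, 1.59% of members beside 5.69% of all genes. The list's median change was 0.059, beside -0.0043 over all genes.

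Slc6a8, the creatine carrier, rose from -0.76, -0.36 and -0.25 with DMSO to 0.19, 0.097 and 0.17 with BDNF (0.61 ± 0.090, 1.53-fold). Slc38a1, the neuronal glutamine carrier, rose from -0.26, -0.040 and 0.038 to 0.56, 0.44 and 0.47 (0.58 ± 0.070), and Slc1a5 from -0.61, -0.70 and -0.49 to -0.045, -0.20 and -0.17 (0.46 ± 0.069). In these 3 genes every BDNF array lay above every DMSO array, and both probe sets of each were called higher. Slc7a14, a lysosomal protein of the cationic branch, went from -0.48, -0.14 and 0.041 to 0.37, 0.26 and 0.23 (0.48 ± 0.16, adjusted p = 0.0318). That call was lost in 5 of 6 fits with 1 array left out, at 0.34 to 0.60, and kept only without DMSO 2 h replicate 3. It was at 0.34 without the 2 arrays that stand apart (adjusted p = 0.175). The arginine carrier Slc7a3 was at -0.77, -0.29 and -0.12 with DMSO and 0.023, 0.054 and -0.014 with BDNF (0.41 ± 0.12), and without DMSO 2 h replicate 1, its lowest array, it was at 0.22 (adjusted p = 0.0915).

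Smaller rises were those of Slc7a1 (0.21 ± 0.059), Slc7a7 (0.30 ± 0.10) and the vesicular amino acid carrier Slc6a17 (0.38 ± 0.088, with all 3 probe sets higher). The call of Slc7a1 was lost without BDNF 2 h replicate 1 (0.18, adjusted p = 0.0507). Slc1a4 was called lower (-0.26 ± 0.093, adjusted p = 0.0378), but DMSO 2 h replicate 1 read 0.32 against -0.13 and -0.12 on the other two control arrays. Without that array the change of Slc1a4 was -0.12 (adjusted p = 0.305), and the call was also lost without any 1 of the 3 BDNF arrays and with array weights (-0.12, adjusted p = 0.0631).

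The 5 other falls were those of Slc38a9, Slc7a4, Slc43a2, Slc38a6 and Slc38a7. Slc38a9 went from -0.00088, 0.0063 and 0.035 to -0.41, -0.36 and -0.48 (-0.43 ± 0.058), with 4 of 7 probe sets called lower and a range of -1.44 to 0.030. Slc7a4, which belongs to the cationic branch by sequence, went from 0.24, 0.18 and 0.10 to -0.14, -0.22 and -0.29 (-0.39 ± 0.063), and its 3 probe sets lay between -0.41 and -0.35. Slc43a2, a carrier of leucine and other large neutral amino acids, went from 0.084, -0.021 and -0.052 to -0.39, -0.38 and -0.38 (-0.39 ± 0.069). The BDNF arrays of these 3 genes were close together and apart from the controls. Slc38a6 (0.25, -0.061 and 0.14 against -0.17, -0.30 and -0.29, -0.37 ± 0.095) and Slc38a7 (0.10, 0.12 and 0.14 against -0.19, -0.30 and -0.13, -0.32 ± 0.064) were lower without overlap as well.

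Of the members followed by rule, Slc1a1 (0.079 ± 0.048), Slc1a2 (-0.077 ± 0.086), Slc1a3 (-0.077 ± 0.12), Slc3a2 (-0.040 ± 0.062) and Slc6a9 (-0.028 ± 0.090) did not pass the test with BDNF at 2 h. Nor did Slc6a6 (0.14 ± 0.060), Slc7a5 (0.079 ± 0.078), Slc7a11 (0.090 ± 0.071) and Slc38a2 (0.090 ± 0.052). Slc1a1 had 1 probe set called in each direction, at 0.23 and -0.15. With array weights Slc7a5 (0.15, adjusted p = 0.00741) and Slc38a2 (0.099, adjusted p = 0.0306) were called higher, and Slc7a5 also without the 2 arrays that stand apart (0.19, adjusted p = 0.0254). With 1 array left out, Slc7a5 ranged from 0.0031 to 0.19 (adjusted p up to 0.985) and Slc38a2 from 0.065 to 0.13 (up to 0.475). With array weights 23 members were called, 14 higher and 9 lower, beside 43.6% of all genes.

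After 12 h of BDNF alone, Slc7a14, Slc38a1, Slc7a1, Slc7a11, Slc7a5 and Slc1a1 had risen, while others of the same families, such as Slc38a3, Slc7a8 and Slc1a6, had fallen. Slc7a4 had fallen further than any other member. In all 22 members were called, 11 higher and 11 lower, 34.9% of members beside 41% of all genes (16.9% higher and 24.2% lower). Over 1.5-fold 3 were higher and 3 lower, 9.52% of members beside 10.8% of all genes. The list's median was -0.017, beside -0.012 over all genes.

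Slc7a14 had the largest rise, from -0.74, 0.035 and -0.15 with DMSO to 1.13, 1.14 and 1.02 with BDNF (1.38 ± 0.16, 2.60-fold, adjusted p = 5.39e-07), and both probe sets rose, by 1.36 and 1.39. Slc7a1, the main arginine carrier of most cells, rose from -0.025, -0.013 and -0.16 to 0.54, 0.61 and 0.58 (0.64 ± 0.059), with its 3 probe sets between 0.49 and 0.81. Slc7a3 rose by 0.39 ± 0.12, a call lost without DMSO 12 h replicate 3 (0.28, adjusted p = 0.0801). The BDNF arrays of these 3 genes all lay above the controls. Slc7a4 of the same branch fell, from 0.39, 0.53 and 0.32 to -0.72, -0.64 and -0.70 (-1.10 ± 0.063, 2.15-fold lower, adjusted p = 1.08e-11), and its 3 probe sets fell by similar amounts, -1.19 to -1.05.

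Slc38a1, Slc1a5, Slc6a8 and Slc6a6 rose too. Slc38a1 rose from -0.32, -0.12 and -0.13 to 0.51, 0.52 and 0.49 (0.70 ± 0.070, 1.62-fold), and Slc1a5 from -0.73, -0.67 and -0.69 to -0.25, -0.14 and -0.20 (0.50 ± 0.069). Slc6a8 rose from -0.53, -0.34 and -0.49 to 0.083, 0.11 and 0.083 (0.55 ± 0.090), and the groups of all 3 genes were apart. The probe sets of Slc6a8 did not move alike at 12 h, 1 at 1.12 and called, the other at -0.028. The taurine carrier Slc6a6 rose by 0.32 ± 0.060, and the glycine carrier of inhibitory neurons, Slc6a5, by 0.24 ± 0.089.

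Slc7a11, Slc7a5 and Slc1a1 rose and Slc7a8 fell. Slc7a11, which trades glutamate for the cystine used to make glutathione, went from -0.0017, -0.10 and -0.023 to 0.37, 0.49 and 0.40 (0.46 ± 0.071). The leucine carrier Slc7a5 rose by 0.34 ± 0.078, while their heavy chain Slc3a2 was at 0.098 ± 0.062 (adjusted p = 0.234). Slc1a1 rose by 0.41 ± 0.048, 2 of its 3 probe sets being called and the third at -0.015. Slc7a8, a relative of Slc7a5, fell, from -0.32, 0.032 and -0.061 to -0.61, -0.83 and -0.86 (-0.65 ± 0.11). No BDNF array of Slc7a8 reached the range of the controls.

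The other falls with BDNF at 12 h were spread over families. Slc1a6 went from 0.082, 0.095 and -0.072 to -0.81, -0.80 and -0.98 (-0.90 ± 0.15), and Slc6a15 from -0.27, -0.064 and -0.047 to -0.64, -0.68 and -0.79 (-0.57 ± 0.098). Slc38a9 went from 0.22, 0.26 and 0.25 to -0.20, -0.21 and -0.28 (-0.47 ± 0.058), with 6 of its 7 probe sets called lower. In each of these the BDNF arrays formed a tight group below the controls. Slc38a6 (-0.46 ± 0.095), Slc36a4 (-0.42 ± 0.053), Slc6a11 (-0.35 ± 0.078), Slc6a20a (-0.35 ± 0.13), Slc38a3 (-0.34 ± 0.10) and Slc7a13 (-0.18 ± 0.071) were called lower as well. Only 1 of 2 probe sets was called for Slc38a6 (-0.91, the other at -0.0088), Slc6a11 (-0.66, the other at -0.032) and Slc38a3 (-0.56, the other at -0.11). Slc6a20a has a close copy, Slc6a20b, which was at -0.0085 ± 0.074, and probes may read both. Not called were Slc1a2 (-0.012 ± 0.086), Slc1a3 (-0.28 ± 0.12, adjusted p = 0.0619), Slc1a4 (-0.017 ± 0.093), Slc6a9 (-0.10 ± 0.090) and Slc38a2 (-0.060 ± 0.052). Slc1a3 was called lower under 4 alternatives, with array weights (-0.22, adjusted p = 0.0202), in a fit of the 4 groups at 12 h alone (adjusted p = 0.0247), without the 2 arrays that stand apart (adjusted p = 0.00388) and with the less variable genes dropped (adjusted p = 0.0425). With 1 array left out, however, Slc1a3 ranged from -0.35 to -0.16 (adjusted p up to 0.347). It was weakest without DMSO 12 h replicate 1. Slc1a2 had 1 probe set called in each direction, at 0.32 and -0.50. Of 10 astrocyte markers 3 fell with BDNF at 12 h, among them Aldoc at -0.76 ± 0.17 and Aqp4 at -0.70 ± 0.18, and the mean of the markers ranged from -0.28 to -0.16 over the BDNF arrays, which overlapped with the -0.16 to 0.26 of the DMSO arrays. Of 8 microglia markers 3 fell, and neuron markers rose for 4 and fell for 5 of 10. The mean of the neuron markers was nevertheless higher without overlap, 0.042 to 0.069 with BDNF against -0.40 to -0.33 with DMSO. So were the means of progenitor markers (0.13 to 0.21 against -0.16 to 0.076) and interneuron markers (-0.12 to -0.050 against -0.33 to -0.19). The microglia mean was lower without overlap (-0.27 to -0.15 against -0.086 to -0.020). These marker counts stand beside 16.9% of all genes higher and 24.2% lower. The part of these markers in the falls was not tested.

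Most genes of the amino acid response rose with BDNF at 12 h. Of its 35 genes 27 rose and 3 fell at 12 h, beside 16.9% of all genes higher and 24.2% lower. The median was 0.36, beside -0.012 over all genes. At 2 h 10 rose and 2 fell, beside 9.79% of all genes higher and 18.1% lower, with a median of 0.039 for the list. At 12 h Atf3 rose by 1.22 ± 0.15, the secreted factor Stc2 by 1.09 ± 0.13 and Ddit3 by 0.97 ± 0.11. At 2 h Atf3 (1.89 ± 0.15), Ddit3 (1.84 ± 0.11) and Cebpb (1.04 ± 0.090) had risen most. Of the 29 genes that report amino acids to mTORC1, 3 rose and 8 fell at 2 h and 7 rose and 12 fell at 12 h, with the sestrin gene Sesn1 at -1.0 ± 0.087 and -0.90 ± 0.087. Of the 17 genes of glutamate, GABA and glutathione metabolism 4 rose and 1 fell at 2 h. At 12 h 7 of them rose and 3 fell. The counts of the mTORC1 and metabolic lists stand beside the same shares of all genes at each time. The GABA-making enzyme Gad2 rose by 1.26 ± 0.11, Slc17a6 by 1.20 ± 0.076 and the glutamine synthetase gene Glul by 0.82 ± 0.068 at 12 h.

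Adding IBET858 to BDNF asks which members differed when BET proteins were inhibited during BDNF treatment. The comparisons with both treatments share groups with those above, so their values are given side by side. At 2 h 13 members were called against BDNF alone, 8 higher and 5 lower, 20.6% of members beside 27.1% of all genes (12.2% higher and 14.9% lower). The 3 highest were Slc1a5 (1.30 ± 0.069, 2.46-fold), Slc3a1 (0.77 ± 0.14) and Slc6a8 (0.41 ± 0.090). The 3 lowest were Slc7a14 (-0.63 ± 0.16), Slc38a1 (-0.50 ± 0.070) and Slc7a1 (-0.36 ± 0.059), all 3 of which BDNF alone had raised at that time. Slc1a5 stood at 1.12, 1.21 and 1.15 on the arrays with both treatments, above its values on the 21 other arrays. Slc7a14 stood at -0.17, -0.25 and -0.61, Slc38a1 at 0.046, 0.048 and -0.13 and Slc7a1 at -0.046, -0.068 and -0.14, all below their arrays with BDNF alone. Slc38a9 and Slc38a6, lower with BDNF alone, were higher with both (0.29 ± 0.058 and 0.32 ± 0.095).

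Markers of other cell types differed between these groups as well. At 2 h 3 of 12 vascular and meningeal markers and 4 of 10 neuron markers were higher with both than with BDNF alone. The mean of the vascular markers was 0.39 to 0.45 with both, against -0.012 to 0.019 with BDNF alone, with 1 marker at 3.64 and a median change of 0.18. At 12 h 4 of 8 microglia markers were lower with both than with BDNF alone, with a mean of -0.50 to -0.37 against -0.27 to -0.15, and 2 of 7 progenitor markers were higher, with a mean of 0.37 to 0.43 against 0.13 to 0.21. Against IBET858 alone, 2 vascular and 3 neuron markers were higher at 2 h, and at 12 h 3 progenitor markers were higher, 2 of 7 oligodendrocyte markers were lower, and 4 neuron markers were higher and 4 lower. Over all genes, 12.2% were higher and 14.9% lower with both than with BDNF alone at 2 h. At 12 h these shares were 21.1% and 25.6%. Against IBET858 alone 6.44% of all genes were higher and 14.7% lower at 2 h, and 16.1% and 23.2% at 12 h. The part of these markers in the members' changes was not tested.

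At 12 h 22 members were called against BDNF alone, 11 higher and 11 lower, 34.9% of members beside 46.8% of all genes (21.1% higher and 25.6% lower). Slc3a1 (1.16 ± 0.14), Slc1a5 (0.74 ± 0.069) and Slc7a8 (0.67 ± 0.11) were highest. Slc6a15 (-0.95 ± 0.098), Slc6a9 (-0.80 ± 0.090) and Slc6a7 (-0.79 ± 0.079) were lowest. Slc6a15 read -1.73, -1.63 and -1.57 with both treatments, Slc6a9 read -0.88, -0.72 and -0.93 and Slc7a8 read -0.19, -0.013 and -0.093, and none of them overlapped with BDNF alone. The carriers that BDNF had raised differed here. Slc7a11 was lower with both (-0.51 ± 0.071), as were Slc7a1 (-0.57 ± 0.059) and Slc7a3 (-0.54 ± 0.12), whereas Slc6a8 was higher (0.40 ± 0.090). Slc7a14 (0.12 ± 0.16) and Slc38a1 (-0.13 ± 0.070, adjusted p = 0.133) did not pass the test.

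BDNF added to IBET858 asks what BDNF changed while BET proteins were inhibited. At 2 h 6 members were called against IBET858 alone, 3 higher and 3 lower, 9.52% of members beside 21.2% of all genes (6.44% higher and 14.7% lower). Slc1a5 (0.91 ± 0.069), Slc6a8 (0.76 ± 0.090) and Slc1a1 (0.23 ± 0.048) were higher, and Slc43a2 (-0.34 ± 0.069), Slc38a9 (-0.21 ± 0.058) and Slc7a6 (-0.17 ± 0.059) lower. The call of Slc7a6 was lost in 5 of 6 fits with 1 array left out, at -0.21 to -0.15. That of Slc38a9 was lost without IBET858 2 h replicate 1 and without replicate 2 of both treatments, in a range of -0.25 to -0.18. With the median of probe sets Slc43a2 was at -0.26 (adjusted p = 0.0515). With array weights 13 members were called, and 12 without the 2 arrays that stand apart.

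At 12 h 19 members were called against IBET858 alone, 7 higher and 12 lower, 30.2% of members beside 39.3% of all genes (16.1% higher and 23.2% lower). Slc7a14 was at -0.52, -1.07 and -0.98 with IBET858 alone and at 1.21, 1.23 and 1.20 with both, a rise of 2.07 ± 0.16 (4.20-fold, adjusted p = 1.79e-09) and the largest change of any member in the 8 comparisons. Slc38a1 rose from -0.79, -0.78 and -0.83 to 0.43, 0.39 and 0.30 (1.17 ± 0.070, 2.25-fold), and Slc6a8 rose by 0.62 ± 0.090. Slc7a4 (-0.94 ± 0.063), Slc3a1 (-0.69 ± 0.14) and Slc7a13 (-0.65 ± 0.071) were lowest. For Slc3a1 the arrays with both read 0.80, 0.61 and 1.10, between those of DMSO and those of IBET858 alone. Slc7a13 with both read 0.085, -0.14 and -0.021, below every array of IBET858 alone.

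The interaction asks whether the BDNF response itself differed with IBET858 present, as the change from IBET858 to both minus the change from DMSO to BDNF. At 2 h it was called for 4 members, 2 positive and 2 negative, 6.35% of members beside 8.4% of all genes. It was positive for Slc1a5 (0.45 ± 0.098, adjusted p = 0.00449) and Slc7a4 (0.29 ± 0.089, adjusted p = 0.0440). It was negative for Slc7a14 (-0.82 ± 0.23, adjusted p = 0.0278) and Slc38a1 (-0.57 ± 0.099, adjusted p = 0.000540). BDNF raised Slc38a1 by 0.58 without the inhibitor and left it at 0.0076 with it. For Slc1a5 1 of the 2 probe sets carried the interaction, at 0.85, and the other was at 0.050. For Slc7a14 1 of the 2 probe sets was called, at -0.64, and the other was at -1.01 and not called. None of the 3 probe sets of Slc7a4 was called, at 0.20 to 0.34. The call of Slc7a14 was lost in 5 of 12 fits with 1 array left out, at -0.94 to -0.68, including those without replicate 1 of DMSO or of BDNF and without replicate 3 of both treatments. That of Slc7a4 was lost in 8 of 12, at 0.25 to 0.34. Without the 2 arrays that stand apart neither was called (Slc7a14 -0.68, adjusted p = 0.0812, and Slc7a4 0.26, adjusted p = 0.0880). Without IBET858 2 h replicate 3, or without replicate 3 of both treatments, 2 members were called.

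**Figure D4:**
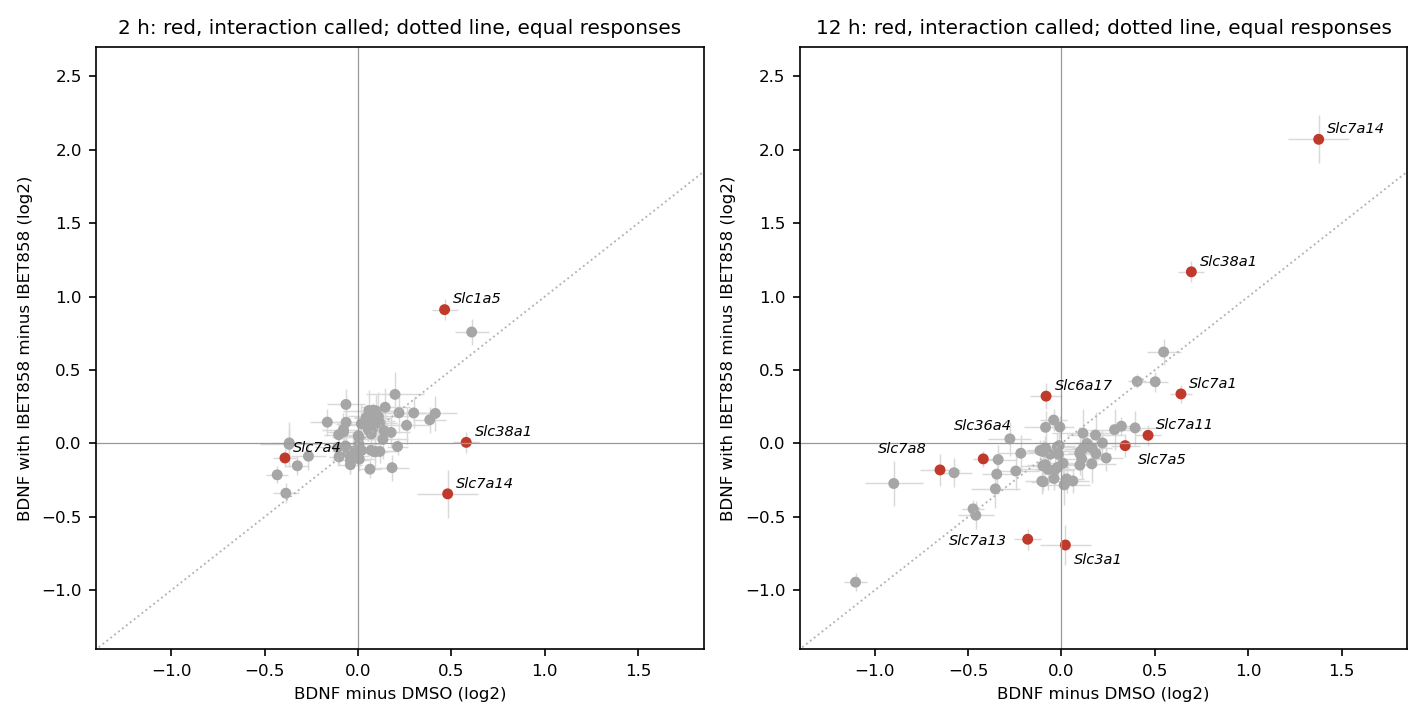
Response of each of the 63 members to BDNF with DMSO (horizontal, log2) and with IBET858 (vertical, log2), at 2 h (left) and 12 h (right), with standard errors of the fit as bars and members with a called interaction in red. At 2 h Slc38a1 and Slc7a14 lie below the dotted line of equal responses, and at 12 h both lie above it.

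At 12 h the interaction was called for 10 members, 5 positive and 5 negative, 15.9% of members beside 16.2% of all genes. The 3 most positive were Slc7a14 (0.69 ± 0.23, adjusted p = 0.0446), Slc38a1 (0.47 ± 0.099) and Slc7a8 (0.47 ± 0.15, adjusted p = 0.0418). The 3 most negative were Slc3a1 (-0.71 ± 0.19), Slc7a13 (-0.47 ± 0.10) and Slc7a11 (-0.41 ± 0.10). BDNF raised Slc7a11 by 0.46 with DMSO, and with IBET858 the change was 0.056 and not called. Slc7a1 (-0.30) and Slc7a5 (-0.36) were negative as well, and Slc6a17 (0.40) and Slc36a4 (0.31) positive. Of the 2 probe sets of Slc7a14, 1 was called, at 0.69, and the other was at 0.70 and not called. Likewise 1 of 2 was called for Slc7a11 (-0.54, the other at -0.28) and for Slc7a13 (-0.68, the other at -0.26). The call of Slc7a14 was lost in 10 of 12 fits with 1 array left out, at 0.53 to 0.92, and kept without replicate 1 of DMSO or of IBET858. It was lost without the 2 arrays that stand apart too (0.63, adjusted p = 0.0663). That of Slc7a8 was lost in 9 of 12, at 0.40 to 0.57. That of Slc38a1 was lost without probe sets ending in _s_at or _x_at (0.19, adjusted p = 0.387). Without BDNF 12 h replicate 2, or without replicate 3 of both treatments, 6 members were called.

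Slc7a14 and Slc38a1 had a negative interaction at 2 h and a positive one at 12 h, and the difference between these interactions was tested after the values had been seen. It was called for 6 members, beside 8.65% of all genes, and was positive for Slc7a14 (1.52, SE 0.33, adjusted p = 0.00433), Slc38a1 (1.05, SE 0.14, adjusted p = 3.69e-05) and Slc6a17 (0.63, SE 0.18, adjusted p = 0.0275). It was negative for Slc3a1 (-0.92), Slc1a5 (-0.53) and Slc7a13 (-0.51). At 12 h IBET858 alone had lowered both Slc7a14 and Slc38a1, so the response under IBET858 started from a lower group mean. The difference between both treatments and BDNF alone did not pass the test for either, which does not show that they were equal. Of the 2 probe sets of Slc7a14, 1 was called higher with both treatments (0.27).

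Between 2 h and 12 h the response to IBET858 differed for members of most families. The change from 2 h to 12 h of the IBET858 effect was called for 18 members, 8 positive and 10 negative, 28.6% of members beside 33.1% of all genes, or 4 positive and 10 negative with each array centred on its median. It was most positive for Slc3a1 (1.30 ± 0.19), Slc1a4 (0.55 ± 0.13) and Slc6a14 (0.45 ± 0.12) and most negative for Slc6a15 (-1.47 ± 0.14), Slc7a14 (-0.77 ± 0.23) and Slc1a6 (-0.74 ± 0.22). Without the 2 arrays that stand apart the difference of Slc7a14 was -0.56 and not called (adjusted p = 0.0851). The rise of Slc1a5 was 0.85 at 2 h and 0.83 at 12 h, a difference of -0.024 ± 0.098. Of the 4 members called with IBET858 at 2 h, 3 were called in the same direction at 12 h (Slc1a5, Slc3a1 and Slc36a4), which is 75% of the earlier list and 10.7% of the later one, beside 61.9% and 18.9% over all genes.

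The BDNF effect changed between the times for 11 members, 5 positive and 6 negative, 17.5% of members beside 24.8% of all genes. It was most positive for Slc7a14 (0.90 ± 0.23), Slc7a1 (0.43 ± 0.083) and Slc7a11 (0.37 ± 0.10) and most negative for Slc7a4 (-0.71 ± 0.089), Slc7a8 (-0.62 ± 0.15) and Slc6a15 (-0.53 ± 0.14). Of the 14 members called with BDNF at 2 h, 9 were called in the same direction at 12 h, 64.3% of the earlier list and 40.9% of the later one, beside 60% and 40.8% over all genes. These were Slc1a5, Slc6a8, Slc7a1, Slc7a3, Slc7a4, Slc7a14, Slc38a1, Slc38a6 and Slc38a9. The serotonin carrier Slc6a4, called for BDNF at neither time, was among the 6 negative ones (-0.50 ± 0.18). With array weights 21 members were called for the change of the BDNF effect.

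**Figure D5:**
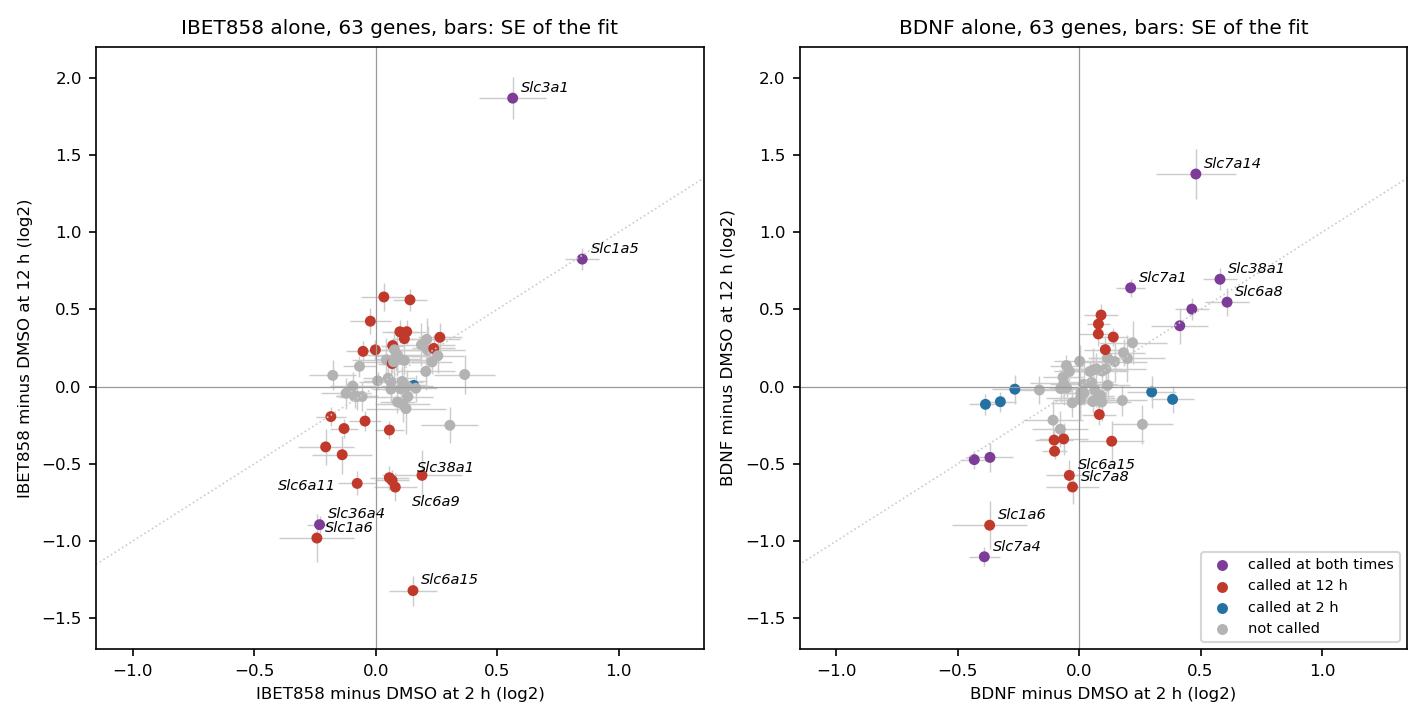
Change of each of the 63 members at 2 h (horizontal, log2) and at 12 h (vertical, log2), for IBET858 alone (left) and BDNF alone (right) against DMSO, with standard errors of the fit as bars and colours for the times at which a member was called. Slc6a15 is near 0.15 at 2 h and at -1.32 at 12 h with IBET858, while Slc1a5 lies near the dotted line of equal changes.

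In DMSO cultures few members differed between the times. At 12 h against 2 h 6 members were called, 5 higher and 1 lower, 9.52% of members beside 7.54% of all genes. Slc7a3 (0.55 ± 0.12), Slc6a20a (0.46 ± 0.13) and Slc7a4 (0.24 ± 0.063) were highest, Slc36a1 and Slc38a9 were called higher too, and Slc6a15 was lower (-0.42 ± 0.098). Slc7a3 read -0.77, -0.29 and -0.12 at 2 h and 0.33, 0.21 and -0.083 at 12 h, and without DMSO 2 h replicate 1 its rise was 0.36 and still called. The calls of Slc6a20a (0.36 to 0.59), Slc7a4 (0.18 to 0.28) and Slc6a15 (-0.54 to -0.34) were lost in 4, 3 and 3 of 6 fits with 1 array left out, and that of Slc6a20a without the 2 arrays that stand apart (0.41, adjusted p = 0.0946). Leaving out 1 array gave 2 to 5 calls, 2 without DMSO 2 h replicate 2 and 3 without DMSO 2 h replicate 3 or without replicate 2 or 3 of DMSO 12 h, and array weights gave 14.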

How the data were processed

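Total RNA from 24 samples of cultured neurons was labelled as biotin cRNA and read on Affymetrix mouse arrays, per the labels' protocols. The authors deposited log2 values made with RMA, per the submitters' processing notes. The RMA version, the chip definition and a centring step are not given in the sources used here. From the values, the median over the 24 arrays was 0, within 1e-06, for each of 45101 probe sets, so the deposited log2 values carry differences and no level. No filter on dim probes was possible, so all 63 members were tested. No pair of arrays held identical values.

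Probe sets were named through GEO's platform annotation, which paired 34958 with 1 gene symbol and 932 with several, and did not list 9211. All 63 members matched the RefSeq gene table by Entrez ID. A gene's value is the mean of its single-gene probe sets. Group means of the 8 groups were fitted with limma 3.58.1 in R 4.3.3 (lmFit and eBayes, 16 residual degrees of freedom), in 13 comparisons, each with Benjamini-Hochberg adjustment over 18194 genes. Adjusted p-values in the text are from this fit, two-sided. A second rule also asked for more than 1.5-fold. The script was tested on simulated data, and figures were drawn with matplotlib 3.10.9 in Python 3.11.15.

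Array values were given for the 5 highest and 5 lowest called members of each single-treatment comparison, and changes for the 3 highest and 3 lowest in the others. Named in all single-treatment comparisons were Slc1a1 to Slc1a5, Slc3a2, Slc6a6, Slc6a8, Slc6a9, Slc7a1, Slc7a3, Slc7a5, Slc7a11, Slc38a1 and Slc38a2, and up to 3 called genes of largest change from lists of the amino acid response, of amino acid sensing by mTORC1, and of glutamate, GABA and glutathione metabolism. Single other members and cell type markers were named after their values were seen. The members and lists were chosen with earlier results of these data known. Alternatives were centring of arrays, the median of probe sets, leaving out probe sets ending in _s_at or _x_at, a fit of probe sets, array weights, the 4 groups of 1 time alone, the replicate number as a block, dropping the less variable genes, and leaving out each array in turn or the pair of arrays with the widest spread. Whether animals were pooled is not given in the sources used here.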

Additional observations from a re-analysis of the deposited data

Results flagged for a closer look

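For several members the response to one treatment differed with the other treatment or with time, by a test of the difference itself (limma, Benjamini-Hochberg adjusted p under 0.05, log2 scale). The lysosomal Slc7a14 was concerned in each of the 4 comparisons given here. In the BDNF response with IBET858 present, at 2 h and at 12 h, only 1 of its 2 probe sets was called.

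At 2 h the response to BDNF differed with IBET858 present by 0.45 for Slc1a5, 0.29 for Slc7a4, -0.57 for Slc38a1 and -0.82 for Slc7a14. At 12 h it differed by 0.69 for Slc7a14, 0.47 for Slc38a1, 0.47 for Slc7a8, -0.41 for the cystine exchanger Slc7a11, -0.47 for Slc7a13 and -0.71 for Slc3a1. Probe sets limit several of these. At 2 h 1 of Slc1a5 was called (0.85) and the other not (0.050), and none of Slc7a4 was. At 12 h 1 was called and the other not for Slc38a1 (0.76 and 0.19), Slc7a11 (-0.54 and -0.28) and Slc7a13 (-0.68 and -0.26).

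The response to IBET858 was more positive at 12 h than at 2 h by 1.30 for Slc3a1, 0.55 for Slc1a4 and 0.45 for Slc6a14. It was more negative at 12 h for Slc6a15 (-1.47), Slc7a14 (-0.77) and Slc1a6 (-0.74). Without the 2 arrays that stand apart, 3 of these differences of Slc7a14 were no longer called: -0.68 (adjusted p = 0.0812) and 0.63 (adjusted p = 0.0663) for the BDNF response at 2 h and 12 h, and -0.56 (adjusted p = 0.0851) for the IBET858 response between times. Slc7a4 at 2 h was not called either (0.26, adjusted p = 0.0880).

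The response to BDNF was more positive at 12 h for Slc7a14 (0.90), Slc7a1 (0.43) and Slc7a11 (0.37). It was more negative for Slc7a4 (-0.71), Slc7a8 (-0.62) and Slc6a15 (-0.53).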

How the results depend on the processing

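Of 98 named values that were called, 82 lost their call in no fit that left out 1 array, and 16 lost it in at least 1. The fit of probe sets ended 9 calls and added 1 among 131 named values, called and uncalled. It ended those of Slc7a1 for BDNF at 2 h (0.21) and for the change of the BDNF effect (0.43), among others. Counts of members called moved most with array weights, to 17 for IBET858 and 23 for BDNF against DMSO at 2 h, 13 for both against IBET858 at 2 h, 8 for the interaction at 2 h, 21 for the change of the BDNF effect and 14 for DMSO at 12 h against 2 h. Without the 2 arrays that stand apart, 12 were called for both against IBET858 at 2 h. Leaving out 1 array gave 3 to 9 calls for IBET858 at 2 h, 4 to 7 for both against IBET858 at 2 h, 2 to 5 for the interaction at 2 h, 6 to 12 for the interaction at 12 h and 2 to 5 for DMSO at 12 h against 2 h. The other counts stayed within 1.5 times under each alternative. The cause of these shifts was not tested.

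Signs turned only for uncalled changes near 0. With arrays centred on their median, IBET858 gave -0.0086 for Slc6a6 at 2 h and -0.025 for Slc38a2 at 12 h. With the median of probe sets, BDNF gave 0.0016 for Slc1a2 at 2 h, and 0.034 for Slc1a2 and 0.0045 for Slc1a4 at 12 h. With array weights, Slc3a2 (0.038) and Slc6a6 (-0.034) turned for IBET858 at 2 h, Slc38a2 (-0.027) for IBET858 at 12 h, Slc1a3 (0.076) for BDNF at 2 h, and Slc1a2 (0.037) and Slc1a4 (0.010) for BDNF at 12 h. Without the 2 arrays that stand apart, Slc3a2 (0.020), Slc6a6 (-0.035) and Slc38a1 (-0.018) turned for IBET858 at 2 h, Slc38a2 (-0.038) at 12 h and Slc1a3 (0.13) for BDNF at 2 h. With 1 array left out, IBET858 at 2 h ranged from -0.045 to 0.18 for Slc1a4, -0.049 to 0.025 for Slc3a2, -0.035 to 0.047 for Slc6a6 and -0.018 to 0.13 for Slc38a1. At 12 h it ranged from -0.12 to 0.049 for Slc1a2, -0.039 to 0.078 for Slc6a6 and -0.038 to 0.033 for Slc38a2. BDNF ranged from -0.21 to 0.13 for Slc1a3 at 2 h, and at 12 h from -0.071 to 0.10 for Slc1a2 and -0.11 to 0.082 for Slc1a4.

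Deviations of same-numbered arrays of different groups correlated at a median of 0.0029 (-0.20 to 0.51). Arrays with other numbers correlated at a median of -0.00063 (-0.44 to 0.34). A median over all groups cannot show whether some groups were paired. With the replicate number as a block, 5 and 28 members were called for IBET858, and 15 and 22 for BDNF, at 2 h and 12 h. The block ended the calls of Slc38a2 for IBET858 at 2 h (adjusted p = 0.0536, limma), Slc7a6 for both against IBET858 at 2 h (0.0527), and Slc7a14 (0.0595) and Slc7a8 (0.0522) for the interaction at 12 h, and Slc6a8 passed for IBET858 at 2 h (0.0461).

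Limits: 3 arrays a group, differences with no level, and probe sets of 1 gene called in both directions in 11 of 256 pairs of member and comparison, over 8 members.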

Other observations

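With both treatments at 12 h, against BDNF alone, 22 of 35 genes of the amino acid response fell and 5 rose (median -0.36), beside 25.6% of all genes lower and 21.1% higher (median -0.010). Members went both ways in that comparison. The cystine exchanger Slc7a11 was lower (-0.51), while Slc1a5 was higher (0.74), as were all 3 probe sets of Slc1a4 (0.50 to 0.55). Whether members followed the list was not tested. Against IBET858 alone 19 of the 35 rose and 4 fell (median 0.21), beside 16.1% of all genes higher and 23.2% lower (median -0.065), while Slc7a11 was at 0.056 and not called. The list's mean level was -0.018 to 0.0027 over the arrays with both treatments at 12 h, 0.26 to 0.31 over those with BDNF alone and -0.19 to -0.15 over those with IBET858 alone, and the 3 groups did not overlap.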
